A study of Mus musculus with 9 samples.

Results

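The folliculin complex, the Rag GTPases C and D, the TFE transcription factors and the TFE target Gpnmb were described in RNA sequencing data from mouse embryonic stem (ES) cells. The 9 genes, Flcn, Fnip1, Fnip2, Rragc, Rragd, Tfe3, Tfeb, Mitf and Gpnmb, were taken by gene name from the 24044 named rows of the expression table, and 8 of the 9 had a row of their own. Rragc was found only on a row that joins it with its neighbour Mycbp. The lines E14, Oct4 GiP and v6.5 were each cultured on gelatin for 2 weeks in Serum, in 2i or in the Paused condition, in which INK128, a blocker of the mTor kinase, was present at 200 nM for those 2 weeks. In ES cell culture, 2i commonly means blocking MEK and GSK3; its make-up here is not stated in the labels. Passages were 20 to 23 in all groups, and ERCC spike-in RNA was added to all samples. Each line gave 1 library per condition, so that there were 9 libraries, 3 per condition. The same 3 lines stand in every condition, and the gene tests take the line into account. Their p-values set a condition difference against its spread over these lines. With 1 library per line and condition, that spread also holds differences between single cultures and libraries.

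As background, folliculin acts at the surface of the lysosome with its partner Fnip1 or Fnip2. The complex switches RagC and RagD to the form that presents TFE3 and TFEB to the mTor complex for phosphorylation, which holds these factors in the cytoplasm. When they are not phosphorylated they enter the nucleus and bind CACGTG-type elements of lysosomal and autophagy genes, known as the CLEAR network, and in mouse ES cells loss of folliculin keeps Tfe3 in the nucleus and hinders exit from pluripotency. The data here are RNA levels and give no protein level, phosphorylation or location.

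The genes lie on 6 chromosomes of the mouse build GRCm38 (mm10), with positions from GENCODE M21 and all of them protein coding. Flcn lies at chr11:59791408-59810016 on the minus strand, and Fnip1 at chr11:54438199-54518235 on the plus strand. Fnip2 lies at chr3:79455974-79567796 on the minus strand, Rragd at chr4:32983037-33022180 and Rragc at chr4:123917446-123936997, both on the plus strand. Mycbp ends 5176 bases before Rragc starts. Mitf lies at chr6:97807052-98021349, Gpnmb at chr6:49036546-49070929, Tfeb at chr17:47737030-47792419 and Tfe3 at chrX:7762560-7775202, all on the plus strand.

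Promoter windows from RefSeq (GRCm38.p6), 250 bases before to 50 after each start, were listed for 9 of the 9 genes in 14 windows. The motif CACGTG, which reads the same on both strands, was in the windows of 2 of the 9 genes, Fnip1 and Rragc. This was 2 of the 14 windows, beside 7.15% of 32851 mouse promoter windows of that length. The longer form TCACGTGA, which contains CACGTG, was in 0 of the 14 windows and in 0.974% of the mouse windows. CATGTG, searched on both strands, and TCATGTGA, which contains it, were also in 0 of the 14, against 14.2% and 0.986% of the mouse windows. The 250 bases before the start are shown for the genes with a match and, beside them, for Flcn, which had none, with CACGTG in capitals.
Fnip1, chr11:54437929-54438178, plus strand: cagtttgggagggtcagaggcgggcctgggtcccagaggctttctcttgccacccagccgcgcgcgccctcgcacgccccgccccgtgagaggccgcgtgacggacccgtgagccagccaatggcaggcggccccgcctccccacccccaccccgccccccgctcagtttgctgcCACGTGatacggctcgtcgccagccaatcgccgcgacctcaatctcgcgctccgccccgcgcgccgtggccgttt
Rragc, chr4:123917183-123917432, plus strand: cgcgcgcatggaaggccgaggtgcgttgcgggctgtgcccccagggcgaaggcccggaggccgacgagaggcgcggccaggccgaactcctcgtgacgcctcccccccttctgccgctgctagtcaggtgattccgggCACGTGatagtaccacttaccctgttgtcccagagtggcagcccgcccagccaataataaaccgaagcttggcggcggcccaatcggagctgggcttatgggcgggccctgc
Flcn, chr11:59810040-59810289, minus strand: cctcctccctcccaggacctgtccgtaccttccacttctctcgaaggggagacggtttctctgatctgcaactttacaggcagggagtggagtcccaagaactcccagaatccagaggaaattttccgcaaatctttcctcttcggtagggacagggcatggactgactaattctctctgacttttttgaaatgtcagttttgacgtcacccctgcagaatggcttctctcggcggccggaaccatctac
The capitals stand at bases -75 to -70 in Fnip1 and -112 to -107 in Rragc, counted from the RefSeq start. A match describes the letters and is not a shown binding site, and no match says only that the letters are not in that window.

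Levels are FPKM, fragments scaled by transcript length and by library, as the authors deposited them. Fold changes were computed as log2(FPKM + 1) differences and are given ± the limma standard error. A gene was called when its p-value, adjusted by Benjamini-Hochberg over 12711 tested genes, was below 0.05. Counts at an unadjusted p under 0.05 stand without a share of all tested genes, which was not computed at that threshold. The number of genes at FPKM of 1 or more ran from 11709 to 12112 per library, and the depth is unknown because no counts were given. The authors' second value, normalized expression, is FPKM multiplied by 1 constant per library, on average 3.59 ± 0.17 in Serum, 2.80 ± 0.36 in 2i and 1.88 ± 0.095 in Paused libraries (SD, n = 3). On that scale the median tested gene was shifted by -0.88 for Paused against Serum, by -0.33 for 2i against Serum and by -0.56 for Paused against 2i, and a value on the authors' scale is named as such; all other values are in FPKM. All 7 ES cell markers examined were at FPKM of 1 or more in all 9 libraries. In bulk RNA, fewer cells of a type and less RNA per cell cannot be told apart.

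In Paused against Serum cells, the genes of the folliculin complex rose in FPKM: 3 of the 7 tested genes were called higher, Flcn, Fnip1 and Fnip2, and 0 were called lower, also at an unadjusted p under 0.05. Of all tested genes, 18.2% were called in this comparison, 7.64% higher and 10.5% lower. The median log2 fold change of the 7 genes was 0.40 in FPKM, beside -0.01 over all tested genes, and -0.36 on the authors' scale, where 0 of the 7 were called higher and 2 lower, beside 0.378% higher and 76.9% lower of all tested genes. In 2i against Serum, 3 of the 7 were called higher, Flcn, Fnip1 and Mitf, and 1 was called lower, Tfe3, beside 40.6% of all tested genes called, 21.7% higher and 18.9% lower. The authors' scale gave 1 and 1 of the 7, beside 9.76% higher and 35.7% lower of all tested genes. In Paused against 2i, 3 were called higher, Fnip1, Fnip2 and Tfe3, and 1 lower, Mitf, beside 44.4% of all tested genes called, 19.8% higher and 24.6% lower. The authors' scale gave 0 and 3, beside 6.21% and 54.5%. Over the 3 conditions together, the F test called 5 of the 7, beside 54.8% of all tested genes. Each pair of comparisons shares a set of libraries. Gpnmb did not reach the filter and was not tested.

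**Figure D1:**
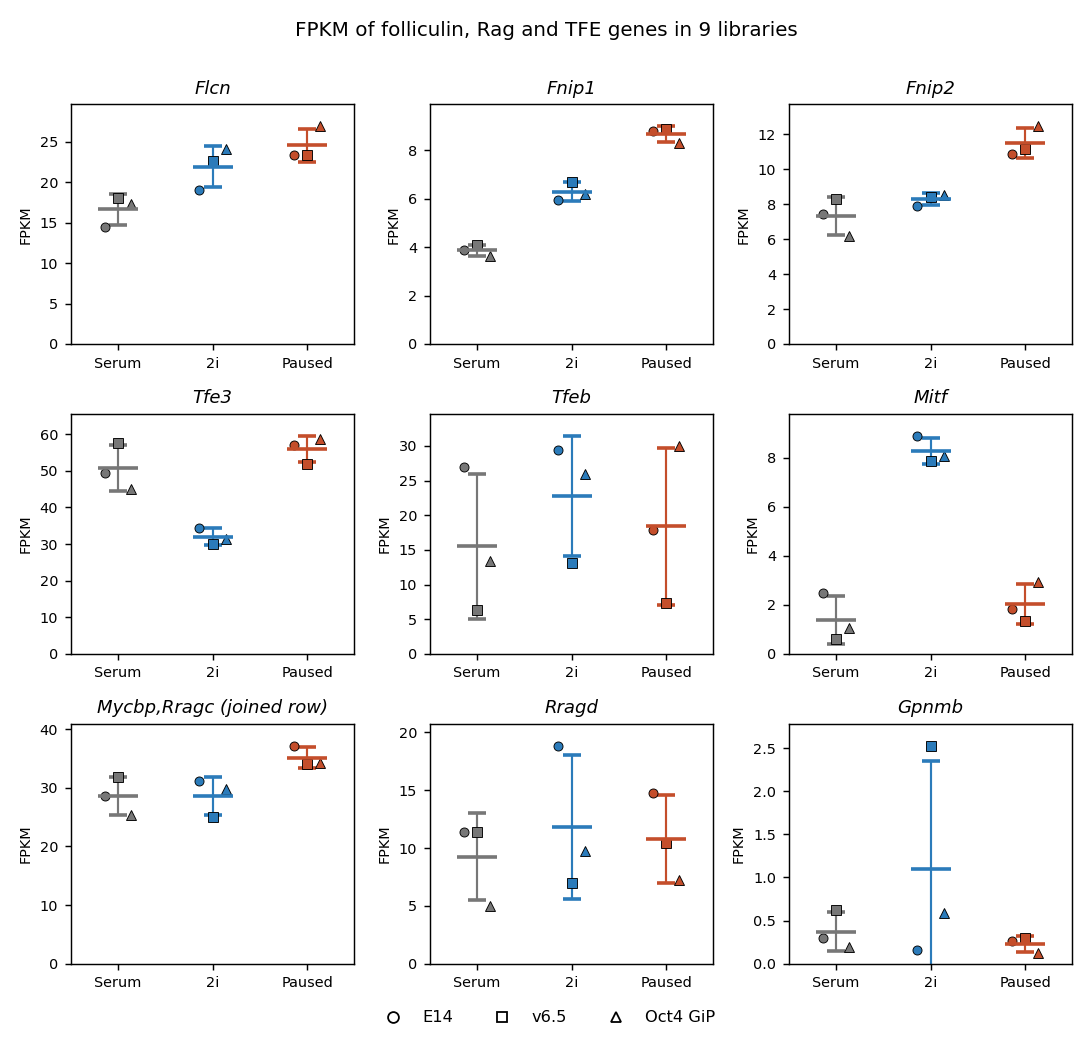
FPKM of the 8 genes with a row of their own and of the joined Mycbp,Rragc row in the 3 conditions, with 1 point per cell line and bars for the mean ± SD (n = 3, cut at 0 for Gpnmb in 2i). Fnip1 stood lowest in the 3 Serum libraries and highest in the 3 Paused libraries, and Mitf was highest in the 3 libraries of 2i.

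Fnip1, a folliculin partner, was at 3.88, 4.09 and 3.63 FPKM in Serum, at 5.95, 6.71 and 6.21 in 2i and at 8.82, 8.89 and 8.29 in Paused cells, with the lines ordered as E14, then v6.5, then Oct4 GiP, here and in what follows. The 3 conditions did not overlap, and each line had its lowest level in Serum and its highest in Paused. Fnip1 rose by 0.99 ± 0.09 in Paused against Serum (adjusted p = 0.0096 by limma), a 2.24-fold ratio of means, and on the authors' scale the value was 0.22 and was not called. It rose by 0.58 ± 0.09 in 2i against Serum (adjusted p = 0.0047), with 0.31 on the authors' scale, not called. In Paused against 2i it rose by 0.41 ± 0.09 (adjusted p = 0.0130) in FPKM, and the direction turned on the authors' scale, to -0.09.

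Flcn, which encodes folliculin, was at 14.5, 18.0 and 17.4 FPKM in Serum, at 19.1, 22.6 and 24.05 in 2i and at 23.4, 23.4 and 26.9 in Paused cells. Every Serum library lay below every library of the other conditions, and the levels in 2i and Paused overlapped. Flcn rose by 0.54 ± 0.09 in Paused against Serum in FPKM (adjusted p = 0.0178 by limma), and the direction turned to -0.36 on the authors' scale (adjusted p = 0.0331). It rose by 0.38 ± 0.09 in 2i against Serum (adjusted p = 0.0189), with 0.03 on the authors' scale, and the call was lost when each library was centred on its median gene (0.27, adjusted p = 0.0567). Paused against 2i gave 0.16 ± 0.09 (adjusted p = 0.192) in FPKM and -0.39 on the authors' scale, where it was called lower (adjusted p = 0.0323). The antisense neighbour Gm16062, 64 bases away, was at 0.972 to 1.56 FPKM, and whether fragments were counted by strand is not given.

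Fnip2, the other folliculin partner, was at 7.42, 8.31 and 6.15 FPKM in Serum, at 7.89, 8.42 and 8.50 in 2i and at 10.8, 11.1 and 12.4 in Paused cells. The Paused libraries were above all others, and Serum and 2i overlapped. Fnip2 rose by 0.60 ± 0.12 in Paused against Serum (adjusted p = 0.0270 by limma) in FPKM, against -0.26 on the authors' scale. It rose by 0.43 ± 0.12 in Paused against 2i (adjusted p = 0.0328) in FPKM, against -0.09 on the authors' scale. In 2i against Serum the value was 0.17 ± 0.12 (adjusted p = 0.313), and -0.17 on the authors' scale.

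In Paused against Serum the calls of the folliculin genes depended on the libraries used: 0 of the 3 were kept without the Oct4 GiP Serum library, without any 1 Paused library, or without any 1 line, 1, Fnip1, was kept without the E14 Serum library, and Fnip2 was lost without the v6.5 Serum library (adjusted p = 0.0503). The number of all genes called fell from 2311 to between 4 and 38 in the settings that kept 0 of the 3, and the log2 values of the 3 genes stayed above 0 in all 12 leave-outs, at 0.96 to 1.01 for Fnip1, 0.48 to 0.63 for Flcn and 0.44 to 0.70 for Fnip2. Over the leave-outs the highest adjusted p was 0.170 for Fnip1, 0.192 for Flcn and 0.209 for Fnip2. In 2i against Serum the Flcn call was lost without the E14 or the Oct4 GiP Serum library, without the v6.5 or the Oct4 GiP library in 2i and without any 1 line (adjusted p of 0.0608 to 0.171), and that of Fnip1 without the Oct4 GiP line (0.0804). In Paused against 2i the Fnip1 call was lost without the E14 or the Oct4 GiP Paused library and without any 1 line (0.0526 to 0.110), and that of Fnip2 without any 1 library of 2i or Paused and without any 1 line (0.0587 to 0.133).

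Because FPKM is per length, the partners can be set side by side. Fnip2 made up 65.7%, 67.0% and 62.9% of the summed FPKM of Fnip1 and Fnip2 in Serum, 57.0%, 55.7% and 57.8% in 2i, and 55.2%, 55.6% and 60.0% in Paused cells. All Serum shares were above all others. The difference in percentage points was -8.25 in Paused against Serum and -8.34 in 2i against Serum, each with an exact permutation p of 0.1, two-sided, which is the smallest that 3 against 3 libraries allow (0.15 adjusted over 6 comparisons of shares). The permutation test of shares did not pair libraries by line. Paused and 2i differed by 0.09 (exact permutation p = 1).

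**Figure D2:**
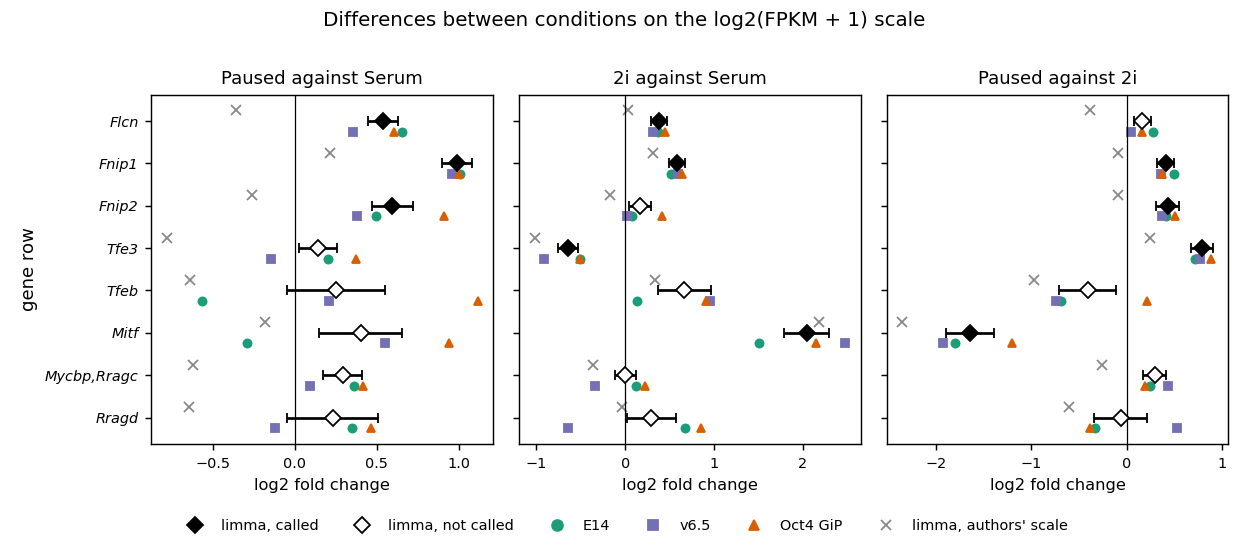
Log2 fold change of each tested gene in the 3 comparisons, with black diamonds for the limma estimate ± standard error in FPKM (filled where called), coloured points for the single lines and grey crosses for the authors' scale. In Paused against Serum, Flcn and Fnip2 were above 0 in FPKM and below 0 on the authors' scale.

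The Rag GTPases C and D, which pair with RagA or RagB and on which the folliculin complex acts, were called by limma in 0 of the 3 comparisons in FPKM. At an unadjusted p under 0.05 this count was 0 for Rragd, and the joined row with Rragc was higher in Paused against Serum and against 2i. Rragd was at 11.4, 11.4 and 4.95 FPKM in Serum, at 18.8, 6.95 and 9.72 in 2i and at 14.8, 10.4 and 7.20 in Paused cells. The conditions overlapped, and the lines moved differently: in 2i against Serum E14 gave a log2 difference of 0.68, Oct4 GiP one of 0.85, and v6.5 one of -0.64. The limma values were 0.23 ± 0.28 in Paused against Serum (adjusted p = 0.587), 0.29 ± 0.28 in 2i against Serum (adjusted p = 0.428) and -0.06 ± 0.28 in Paused against 2i (adjusted p = 0.870). These values were -0.65, -0.04 and -0.61 on the authors' scale, with 0 called. Without the v6.5 library in 2i the second value was 0.67 (adjusted p = 0.0316), and without the v6.5 line it was 0.76 (adjusted p = 0.0243), both called.

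The joined Mycbp,Rragc row, which cannot be divided between its genes, was at 28.7, 31.8 and 25.4 FPKM in Serum, at 31.1, 24.95 and 29.8 in 2i and at 37.1, 34.0 and 34.3 in Paused cells. Paused libraries were above all others, and Serum and 2i overlapped. The log2 value was 0.29 ± 0.12 in Paused against Serum (adjusted p = 0.133 by limma), 0.00 in 2i against Serum (adjusted p = 0.997) and 0.29 ± 0.12 in Paused against 2i (adjusted p = 0.0902). On the authors' scale the same values were -0.62, -0.36 and -0.26, and the first was called lower (adjusted p = 0.0111 by limma).

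Tfe3, the most abundant TFE factor per length in all 9 libraries, fell in 2i. It was at 49.5, 57.5 and 45.2 FPKM in Serum, at 34.5, 30.1 and 31.5 in 2i and at 57.1, 51.9 and 58.8 in Paused cells. All 2i libraries were below all others, and Serum and Paused overlapped. The log2 change was -0.64 ± 0.12 in 2i against Serum (adjusted p = 0.0074 by limma) and -1.02 on the authors' scale, and the call was lost without the Oct4 GiP line (adjusted p = 0.0583). Tfe3 was higher by 0.79 ± 0.12 in Paused against 2i (adjusted p = 0.0032), with 0.24 on the authors' scale, not called. Paused against Serum gave 0.14 ± 0.12 (adjusted p = 0.413) in FPKM and -0.78 on the authors' scale (adjusted p = 0.0040).

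Mitf, the TFE family member best known as the regulator of melanocytes, rose in 2i. It was at 2.48, 0.594 and 1.05 FPKM in Serum, at 8.88, 7.86 and 8.08 in 2i and at 1.84, 1.34 and 2.95 in Paused cells. The 2i libraries were above all others, and Serum and Paused overlapped. Mitf rose by 2.04 ± 0.25 in 2i against Serum (adjusted p = 0.0024 by limma), a 6.01-fold ratio of means, and by 2.17 on the authors' scale. In Paused against 2i the change was -1.64 ± 0.25 (adjusted p = 0.0037), and -2.35 on the authors' scale. Both calls were kept in 12 of 12 settings that left out a library or a line. Paused against Serum gave 0.40 ± 0.25 (adjusted p = 0.299) in FPKM and -0.18 on the authors' scale. GENCODE lists 8 transcripts of Mitf, and the row does not separate them.

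Tfeb, a TFE factor known for its control of lysosomal genes, was at 26.9, 6.26 and 13.3 FPKM in Serum, at 29.5, 13.1 and 25.9 in 2i and at 17.9, 7.39 and 30.0 in Paused cells. The v6.5 line had the lowest level in every condition, and the conditions overlapped. The values were 0.25 ± 0.30 in Paused against Serum (adjusted p = 0.577 by limma), 0.66 ± 0.30 in 2i against Serum (adjusted p = 0.121) and -0.41 ± 0.30 in Paused against 2i (adjusted p = 0.301). Without the E14 Serum library, 2i against Serum gave 1.001 (adjusted p = 0.0363). On the authors' scale Paused against Serum turned to -0.64, 2i against Serum gave 0.34, and Paused against 2i was called lower, at -0.98 (adjusted p = 0.0308).

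The TFE factors were also set side by side per length. Tfe3 made up 62.7%, 89.4% and 75.9% of the summed FPKM of Tfe3, Tfeb and Mitf in Serum, 47.3%, 59.0% and 48.1% in 2i and 74.3%, 85.6% and 64.1% in Paused cells. All 2i shares were below all others. The difference was -24.5 percentage points in 2i against Serum and 23.2 in Paused against 2i, each with an exact permutation p of 0.1 (0.15 adjusted), and -1.32 in Paused against Serum (exact permutation p = 0.8). Mitf took 0.923% to 3.14% of the sum in Serum, 12.2% to 15.4% in 2i and 2.21% to 3.21% in Paused cells. The sum itself was 67.6 ± 10.0 FPKM in Serum, 63.1 ± 11.1 in 2i and 76.4 ± 15.6 in Paused cells (SD, n = 3), with overlapping ranges.

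**Figure D3:**
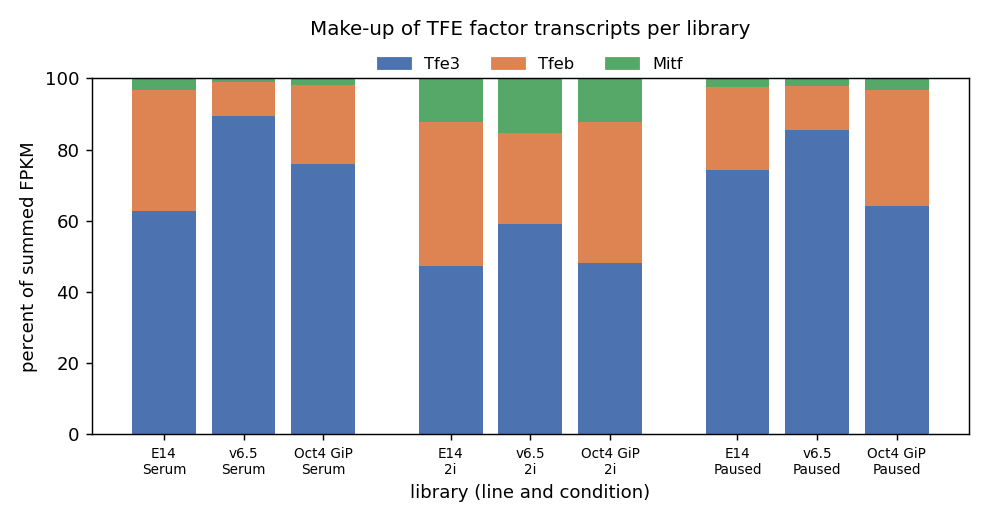
Percent of the summed FPKM of Tfe3, Tfeb and Mitf that each factor made up, with 1 stacked bar per library, grouped by condition. The Tfe3 share was lowest in the 3 libraries of 2i (47.3% to 59.0%).

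Gpnmb, a lysosomal and melanosomal glycoprotein gene used as a readout of TFE activity, was low. It was at 0.300, 0.620 and 0.190 FPKM in Serum, at 0.160, 2.52 and 0.591 in 2i and at 0.259, 0.302 and 0.123 in Paused cells. The v6.5 library in 2i was the only 1 of 9 at FPKM of 1 or more, and the conditions overlapped.

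The order of the levels was led by Tfe3 in every condition. In Serum the joined row, Flcn, Tfeb, Rragd, Fnip2, Fnip1, Mitf and Gpnmb followed, and Flcn and Tfeb, Tfeb and Rragd, Rragd and Fnip2, and Mitf and Gpnmb overlapped as neighbours. In 2i the order was Tfe3, the joined row, Tfeb and Flcn, each overlapping the next, then Rragd, Mitf and Fnip2, which also overlapped, then Fnip1 and Gpnmb. In Paused cells it was Tfe3, the joined row, Flcn, Tfeb, Fnip2, Rragd, Fnip1, Mitf and Gpnmb, with overlap between neighbours from Flcn to Fnip1.

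Over the 9 libraries, which share lines and conditions, the genes most like each gene were found among 8000 tested genes (mean FPKM of 5 or more, a single symbol, no predicted or small RNA name) by Pearson correlation of log2(FPKM + 1), as a description. For Fnip1 these included Lrch3 (r = 0.983) and Pcmtd2 (0.982). For Flcn they were Glt8d1 (0.972), Ganab (0.968) and Brf1 (0.966), and for Fnip2 Nipbl (0.959), Ttc3 (0.956) and Arid4b (0.955). For Tfe3 they were Lgr4 (0.992), Bend3 (0.988) and Ncapg (0.986), and for Mitf Slc41a1 (0.992), Dnajc4 (0.990) and Pdpk1 (0.990). Tfeb was most like Sbno2 (0.982), Shf (0.943) and Gyk (0.918), and Rragd like Arhgef2 (0.944), Bcl9 (0.882) and Lzts2 (0.858). Among the genes themselves, Fnip1 and Fnip2 gave 0.88, Flcn and Fnip1 0.87, and Tfe3 and Mitf -0.84.

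Of the lysosomal and autophagy genes of the CLEAR network, on which TFE factors act, 11 of the 36 tested were called higher and 0 lower in Paused against Serum, 27 higher and 0 lower in 2i against Serum, and 2 higher and 16 lower in Paused against 2i. At an unadjusted p under 0.05, 2 were lower in Paused against Serum and 0 in 2i against Serum. Glb1, on a joined row, was left out. The median log2 fold change was 0.22, 0.61 and -0.35 in these comparisons, beside -0.01, 0.02 and -0.03 over all tested genes. The shares of all tested genes called, in the same order, were 7.64% higher and 10.5% lower, 21.7% and 18.9%, and 19.8% and 24.6%. On the authors' scale the counts were 0 higher and 24 lower, 13 and 2, and 0 and 32, beside 0.378% and 76.9%, 9.76% and 35.7%, and 6.21% and 54.5% of all tested genes. Without the Oct4 GiP Serum library, any 1 Paused library or any 1 line, the count of 11 became 0, in settings where the count over all genes fell from 2311 to between 4 and 38, and it was 3 without the E14 Serum library, 2 without the v6.5 Serum library and 6 without the Oct4 GiP library in 2i. The count of 27 became 10 without the Oct4 GiP line, where that over all genes fell from 5161 to 1269. The count of 16 became 10 without the v6.5 Paused library, 10 without the v6.5 line and 7 without the Oct4 GiP line. Ranges of the counts over all genes in the leave-outs are given in the closing section. Whether the CLEAR counts fell more than those over all genes was not tested.

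Hexa, a lysosomal hexosaminidase subunit, was at 23.3, 17.7 and 16.1 FPKM in Serum, at 68.2, 66.9 and 71.1 in 2i and at 45.8, 32.5 and 29.1 in Paused cells. The 3 conditions did not overlap. Hexa rose by 1.82 ± 0.14 in 2i against Serum (adjusted p = 0.0009 by limma), with 1.49 on the authors' scale, and by 0.87 ± 0.14 in Paused against Serum (adjusted p = 0.0160), where the authors' scale gave -0.03. The protease gene Ctsb was at 13.96 ± 0.21 FPKM in Serum, 41.3 ± 2.06 in 2i and 12.7 ± 0.844 in Paused cells (SD, n = 3). Ctsb rose by 1.498 ± 0.08 in 2i against Serum, with 1.18 on the authors' scale, and gave -0.12 in Paused against Serum, not called. The protease gene Ctsf moved otherwise: it was at 6.77 ± 1.56 FPKM in Serum, 8.37 ± 3.30 in 2i and 17.3 ± 4.40 in Paused cells. Ctsf rose by 1.23 ± 0.21 in Paused against Serum (adjusted p = 0.0190), with 0.40 on the authors' scale.

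**Figure D4:**
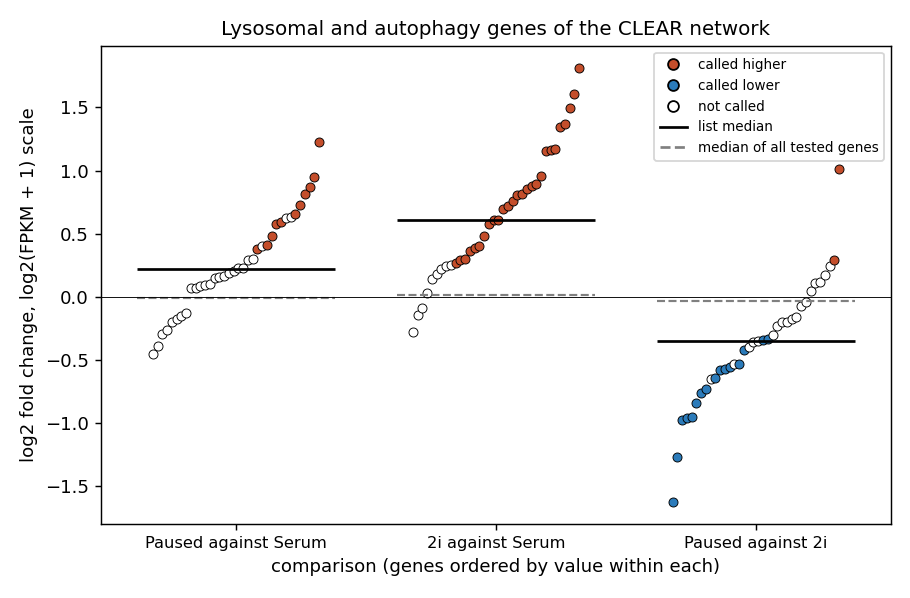
Log2 fold change in FPKM of the 36 tested CLEAR network genes in the 3 comparisons, with 1 point per gene (filled where called), a solid line for the median of the list and a dashed line for that of all tested genes. In 2i against Serum 27 were called higher, and on the authors' scale 13.

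A further list held the genes of Ragulator, which anchors the Rags to the lysosome, of the partners RagA and RagB, and of Rag regulators. From this list 0 of 9 tested were called higher and 2 lower in Paused against Serum, 0 and 2 in 2i against Serum, and 1 and 3 in Paused against 2i. The shares of all tested genes were 7.64% and 10.5%, 21.7% and 18.9%, and 19.8% and 24.6%. The counts on the authors' scale were 0 and 8, 0 and 3, and 1 and 6. On that scale 0.378% and 76.9%, 9.76% and 35.7%, and 6.21% and 54.5% of all tested genes were called higher and lower. At an unadjusted p under 0.05, 0 were higher against Serum in either condition. The median log2 fold change was -0.33, 0.00 and -0.36. Lamtor4 was at 32.6 ± 0.017 FPKM in Serum and 21.5 ± 2.55 in Paused cells, and its log2 change was -0.59 ± 0.09 (adjusted p = 0.0155 by limma), -1.52 on the authors' scale. Rragb, which encodes RagB, was at 20.4 ± 3.21 FPKM in Serum, 9.54 ± 6.10 in 2i and 31.6 ± 12.3 in Paused cells. Its change was 1.70 ± 0.38 in Paused against 2i (adjusted p = 0.0127), and 1.22 on the authors' scale.

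Of the AMPK and LKB1 genes, which act in energy sensing upstream of folliculin, 0 of 9 were called higher and 1 lower in Paused against Serum, 4 and 0 in 2i against Serum, and 0 and 4 in Paused against 2i, beside 7.64% and 10.5%, 21.7% and 18.9%, and 19.8% and 24.6% of all tested genes. On the authors' scale these counts were 0 and 9, 0 and 0, and 0 and 7, beside 76.9%, 35.7% and 54.5% of all tested genes called lower. At an unadjusted p under 0.05, 1 was higher in Paused against 2i, 0 were higher in Paused against Serum and 0 lower in 2i against Serum. The median log2 fold change was -0.05, 0.24 and -0.38. Prkag1, an AMPK subunit, was at 26.3 ± 0.896 FPKM in Serum, 36.6 ± 3.34 in 2i and 18.4 ± 1.51 in Paused cells. Its log2 change was -0.50 ± 0.10 in Paused against Serum (adjusted p = 0.0271) and 0.46 ± 0.10 in 2i against Serum (adjusted p = 0.0159), with -1.43 and 0.10 on the authors' scale.

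Of the 16 genes that control TFE factors by calcium release, phosphatase, kinase, binding or export, 1 was called higher and 1 lower in Paused against Serum, 4 and 2 in 2i against Serum, and 3 and 4 in Paused against 2i, beside 7.64% and 10.5%, 21.7% and 18.9%, and 19.8% and 24.6% of all tested genes. The counts on the authors' scale were 0 and 14, 1 and 5, and 0 and 8. On that scale 0.378% and 76.9%, 9.76% and 35.7%, and 6.21% and 54.5% of all tested genes were called higher and lower. The median log2 fold change was 0.03, -0.02 and 0.03. Mcoln1, the lysosomal calcium channel, is also among the CLEAR genes counted above. It was at 16.9 ± 5.77 FPKM in Serum, 25.8 ± 5.31 in 2i and 26.8 ± 6.85 in Paused cells. It rose by 0.66 ± 0.13 in Paused against Serum (adjusted p = 0.0239) in FPKM, against -0.24 on the authors' scale. Gsk3b, a kinase that phosphorylates TFE factors, was at 8.33 ± 1.34 FPKM in Serum, 14.7 ± 1.42 in 2i and 6.49 ± 0.387 in Paused cells, and rose by 0.75 ± 0.10 in 2i against Serum (adjusted p = 0.0031), with 0.44 on the authors' scale.

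Of 10 further TFE family and melanocyte genes, 4 were tested, and 1 was called higher in 2i against Serum, Trpm1, a melanocyte channel gene. In Paused against 2i 2 were called lower, Trpm1 and the melanosomal gene Mlana (-2.01, adjusted p = 0.0085 by limma, and -2.90 on the authors' scale), and in Paused against Serum 0 were called, also at an unadjusted p under 0.05. Beside these stand 21.7% of all tested genes called higher in 2i against Serum and 24.6% lower in Paused against 2i. The remaining tested genes, Pmel and Tyr, were not called and moved the other way. They gave -0.57 and -0.21 in 2i against Serum, and 0.49 and 0.08 in Paused against 2i. The median log2 fold change of the 4 was -0.11 in Paused against Serum, 0.46 in 2i against Serum and -0.96 in Paused against 2i. On the authors' scale 0 were higher and 2 lower in Paused against Serum, 1 and 1 in 2i against Serum, and 0 and 2 in Paused against 2i. The shares of all tested genes on that scale were 0.378% and 76.9%, 9.76% and 35.7%, and 6.21% and 54.5%. Trpm1 was at 1.02, 0.0285 and 0.160 FPKM in Serum, at 2.51, 12.6 and 22.1 in 2i and at 1.12, 0.0613 and 0.771 in Paused cells. The 2i libraries were above all others, and the log2 change in 2i against Serum was 2.94 ± 0.68 (adjusted p = 0.0167), and 3.68 on the authors' scale. The summed FPKM of 6 melanocyte markers was 8.73 to 12.0 in Serum, 6.49 to 20.5 in 2i and 6.31 to 10.2 in Paused cells, and 3 of the 6, Tyrp1, Dct and Sox10, were under 1 in all 9 libraries. Of 6 macrophage markers, 5 were under 1 in all 9 libraries, and the summed FPKM was 10.4 to 15.7, 6.78 to 17.4 and 10.5 to 16.2. Trophoblast markers summed to 44.8 to 277 FPKM in Serum, 12.2 to 18.0 in 2i and 6.61 to 23.6 in Paused cells, and feeder cell markers to 78.4 to 267, 51.6 to 282 and 33.3 to 50.2. Krt8 and Krt18 made up most of the trophoblast sum in Serum, where E14 had 161 and 108 FPKM, and the other trophoblast markers, Cdx2, Gata3, Elf5 and Hand1, reached at most 4.17 in any library. Vim and Tagln made up most of the feeder sum, and Col1a2, Col3a1 and Postn were under 1 in all 9 libraries. The part of these cells in the results was not tested.

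Esrrb and Tcf7l1, a pluripotency factor and a repressor of pluripotency genes, have been linked to folliculin and Tfe3 in ES cells. Esrrb was at 156, 25.2 and 144 FPKM in Serum, at 183, 248 and 234 in 2i and at 172, 109 and 249 in Paused cells, and was called in 0 of the 3 comparisons (adjusted p = 0.228 in Paused against Serum, 0.0793 in 2i against Serum and 0.578 in Paused against 2i). The log2 values were 0.998, 1.39 and -0.39, and 0.08, 1.04 and -0.96 on the authors' scale. The v6.5 line was lowest in Serum and in Paused. Tcf7l1 was at 61.4 ± 9.23 FPKM in Serum, 86.2 ± 10.8 in 2i and 50.7 ± 4.31 in Paused cells, and rose by 0.49 ± 0.11 in 2i against Serum (adjusted p = 0.0134), with 0.12 on the authors' scale. In Paused against 2i it was called lower, at -0.75 ± 0.11 (adjusted p = 0.0028 by limma), and -1.32 on the authors' scale. Paused against Serum gave -0.26 ± 0.11 (adjusted p = 0.126), and -1.19 on the authors' scale (adjusted p = 0.0006).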

How the data were processed

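Library preparation used 250 ng of total RNA, a directional kit and ERCC spike-in, per the labels' protocols. FPKM values were made by the authors with Cuffnorm on mm10, per the submitters' processing notes. The second deposited value, a normalized expression signal, equals the authors' FPKM times 1 constant per library, read from the values; for the constant's origin, the aligner, the annotation and the use of strand, nothing is given in the sources used here. All 18 value columns were matched to libraries (0 without a sample). Rows without a gene name (5644 of 29801) and 113 identical repeats were left out. The rows without a name held 52.8% to 64.0% of the summed FPKM of a library. Whether this uneven share bears on the levels of the named genes was not tested. No counts are given, so depth is unknown and no counting interval is printed.

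Genes at FPKM of 1 or more in at least 3 libraries, 12711, were tested with limma-trend (limma 3.58.1, R 4.3.3) on log2(FPKM + 1), which understates the change of low genes, with the 9 libraries in 1 fit, the cell line as replicate block and Benjamini-Hochberg adjustment (threshold 0.05). The fit was tested on simulated data with independent noise for each gene and library. That test cannot address effects shared by the genes of a library, or the loss of calls in the leave-outs. The pairing comes from the labelled line: deviations from condition means correlated at -0.0008 to 0.401 within lines and at -0.243 to 0.094 between lines. Shares were compared by exact permutation, two-sided, without pairing libraries by line. The genes and lists were chosen with earlier results of these data known. Named list genes are those with the largest change among those called, up to 4 per list and comparison, and not all are reported; 1 gene among those most like the members is not reported here. Alternatives changed the pseudocount, filter, scale, centring, block, conditions fitted and libraries used; the counts of CLEAR genes under these were added after seeing the data. The share of Rragd among Rragc and Rragd was not computed, since Rragc stands only on a joined row.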

Additional observations from a re-analysis of the deposited data

Results flagged for a closer look

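In Paused against Serum, the lines moved in opposite directions for Tfeb: the log2 difference was 1.12 in Oct4 GiP and -0.56 in E14, a gap of 1.68. In 2i against Serum, they did so for Rragd: the log2 difference was 0.85 in Oct4 GiP and -0.64 in v6.5, a gap of 1.49. Each line has 1 library per condition, so neither difference was tested.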

How the results depend on the processing

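On the authors' normalized expression, Paused against Serum called 9827 genes, and the direction turned for Flcn (-0.36), Fnip2 (-0.26), Tfe3 (-0.78), Tfeb (-0.64), Mitf (-0.18), Rragd (-0.65) and the joined Mycbp,Rragc row (-0.62). In 2i against Serum 2 of the 7 genes were called on it, and Fnip2 (-0.17), Rragd (-0.040) and the joined row (-0.36) turned. In Paused against 2i, Flcn (-0.39), Fnip1 (-0.094), Fnip2 (-0.089) and the joined row (-0.26) turned. CLEAR genes called were then 0 higher, 13 higher and 32 lower in these comparisons. Centring on the median gene turned the joined row in 2i against Serum (-0.11) and Rragd in Paused against 2i (0.021). Fitting only the 2 conditions called 2985 genes in 2i against Serum. Without a filter, and with no replicate block, 7 CLEAR genes were called higher in Paused against Serum; the block changed no call of the 7 genes. Leaving out a library or a line gave 4 to 3223 genes called in Paused against Serum, 1269 to 5436 in 2i against Serum and 2073 to 5611 in Paused against 2i. The called genes of the 7 were 0 to 3, 1 to 4 and 2 to 4, and the CLEAR genes 0 to 15 higher, 10 to 27 higher and 7 to 19 lower. It gave -0.18 to 0.66 for Tfeb in Paused against Serum, -0.11 to 0.17 for the joined row in 2i against Serum and -0.45 to 0.16 for Rragd in Paused against 2i. Differences in share were -1.47 to 0.97 percentage points for Fnip2 in Paused against 2i and -7.94 to 5.37 for Tfe3 in Paused against Serum. The cause of these changes was not tested. The alternatives for the share of Rragd were not run, since Rragc has no row of its own. With no counts, precision at low levels such as that of Gpnmb is unknown.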
